A study of Mus musculus with 84 samples.

Results

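The SR and hnRNP splicing factor genes were taken as the protein-coding genes whose symbol begins with Srsf and a digit or with Hnrnp, with processed copies named -ps left out. This gave 31 genes, 11 SR and 20 hnRNP, of the 55401 gene IDs counted, and all 31 were among the 17941 genes with enough counts to be tested. The rule used symbols alone and no measured value, but it was chosen with earlier results of these data known.

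RNA was measured in NeuN-positive nuclei sorted from the frontal cortex of 129S6/SvEvTac mice aged 12 weeks. NeuN, the product of Rbfox3, marks most neuronal nuclei, so the sort takes neurons of all types together. The groups were mice given vehicle and mice taken 24 h, 48 h or 7 days after DOI (2,5-dimethoxy-4-iodoamphetamine), a psychedelic agonist of serotonin receptors of the 2A type. All groups shared the strain, the age, the region and the sort, and none carried a transgene in the labels. Each group had 4 mice with RNA analysed here, each mouse with 2 libraries that were summed, and the H3K27ac samples of the same study were not analysed here. The mouse was the replicate, and the 24 h, 48 h and 7 days groups were all set against the same 4 vehicle mice.

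SR proteins carry RNA recognition motifs and a tail rich in arginine and serine. They bind enhancer sequences in exons and help the spliceosome to define those exons, and kinases that phosphorylate the tail control their place in the nucleus. hnRNP proteins coat nascent transcripts, often block splice sites that SR proteins would favour, and act in export, transport and stability of mRNA, including transport into neuronal processes. Many genes of both families regulate themselves through exons or introns whose inclusion sends the transcript to decay, and a count per gene adds such transcripts to the coding ones.

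The upstream sequences of 4 members are shown because these genes moved most: Hnrnpul1 had the largest rise after DOI, and Hnrnpab, Srsf5 and Srsf7 the largest falls. Each is the stretch of 250 bases that ends at the base before a RefSeq transcription start (assembly GRCm38.p6), read along the strand of the gene. Capitals mark matches, on either strand, to CCAAT (the core letters of the NF-Y motif), GGGCGG (the GC box that Sp1 binds), GCATGCGC (the core of the NRF1 motif) and CCGGAAG (that of the ETS family). Where capitals run on in Srsf5, a GGGCGG and a CCGGAAG match share a base. The windows lie at chr7:25754760-25755009 (minus strand) for Hnrnpul1, chr11:51606882-51607131 (minus strand) for Hnrnpab, chr12:80945249-80945498 (plus strand) for Srsf5 and chr17:80207306-80207555 (minus strand) for Srsf7.
Hnrnpul1: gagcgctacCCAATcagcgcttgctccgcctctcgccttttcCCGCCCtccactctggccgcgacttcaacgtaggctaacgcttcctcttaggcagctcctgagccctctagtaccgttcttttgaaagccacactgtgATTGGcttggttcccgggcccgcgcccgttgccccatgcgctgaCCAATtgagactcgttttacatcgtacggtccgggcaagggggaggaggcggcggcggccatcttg
Hnrnpab: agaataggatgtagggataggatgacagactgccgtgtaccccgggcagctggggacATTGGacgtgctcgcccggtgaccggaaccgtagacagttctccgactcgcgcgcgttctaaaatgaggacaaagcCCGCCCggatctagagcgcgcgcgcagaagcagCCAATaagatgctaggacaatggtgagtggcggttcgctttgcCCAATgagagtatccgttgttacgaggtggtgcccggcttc
Srsf5: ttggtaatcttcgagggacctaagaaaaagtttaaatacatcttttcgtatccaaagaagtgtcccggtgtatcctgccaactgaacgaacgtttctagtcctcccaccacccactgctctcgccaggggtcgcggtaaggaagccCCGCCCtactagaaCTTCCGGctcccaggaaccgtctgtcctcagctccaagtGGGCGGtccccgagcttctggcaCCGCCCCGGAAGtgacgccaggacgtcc
Srsf7: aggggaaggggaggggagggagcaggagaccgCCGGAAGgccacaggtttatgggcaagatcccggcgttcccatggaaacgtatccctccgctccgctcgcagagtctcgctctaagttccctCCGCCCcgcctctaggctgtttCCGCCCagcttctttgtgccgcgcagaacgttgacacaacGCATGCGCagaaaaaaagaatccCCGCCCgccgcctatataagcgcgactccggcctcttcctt

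The windows of Hnrnpul1, which was higher after DOI, and of Hnrnpab, which was lower, held the same letters: 3 CCAAT matches and 1 GGGCGG match each. Srsf5 and Srsf7 had 3 GGGCGG matches each and no CCAAT, with 2 CCGGAAG matches in Srsf5 and 1 CCGGAAG and 1 GCATGCGC match in Srsf7. Windows of the same 250 upstream bases were matched in RefSeq for 29 of the 31 members and gave 41 windows, since some genes have several starts, and Hnrnpll and Hnrnpul2 had no entry. GGGCGG stood in 80.5% of the member windows, against 32.7% of all 32851 windows and 43.4% of those of protein-coding genes. CCAAT stood in 48.8% of member windows and 33.8% of all windows, CCGGAAG in 22.0% and 6.91%, and GCATGCGC in 7.32% and 2.26%. TATAAA, the TATA box, stood in 7.32% and 12.4%, and CACGTG, an E-box, in 7.32% and 6.02%. TGACGTCA, the full CREB site, was in none of the 41 member windows and in 1.55% of all windows. In windows of protein-coding genes, CCAAT stood in 34.98%, CCGGAAG in 9.18%, GCATGCGC in 3.00%, TATAAA in 11.3%, CACGTG in 6.68% and TGACGTCA in 1.94%. The median G and C content was 66% for members, 52.4% for all windows and 56% for those of protein-coding genes. These are descriptions of letters in a window and not of binding.

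The members covered a wide range of abundance in the vehicle mice. Levels are given as CPM, the count of a gene relative to each mouse's library total after trimmed-mean (TMM) scaling, and where genes are compared with each other, as CPM per kb of annotated exon. In vehicle mice Srsf7 had the highest level per length, 405 ± 40 CPM per kb (SD, n = 4), followed by Srsf5 at 161 ± 35. Hnrnpa2b1, which binds transported mRNAs, had 133 ± 13 CPM per kb. The next 3 were Hnrnpdl at 115 ± 14, Hnrnpu at 85.2 ± 16 and Srsf2, a marker protein of nuclear speckles, at 75 ± 15 CPM per kb. From Srsf5 to Srsf2 the mice of neighbouring genes in this order overlapped, while those of Srsf7 lay above all mice of Srsf5. Hnrnpul1 was the lowest of the 31 in vehicle mice at 0.909 ± 0.2 CPM per kb. Its level did not differ beyond the spread from that of Hnrnpa3, which had 0.919 CPM per kb. By default the counter drops a read that aligns equally well to copies of a gene, so members with processed pseudogenes, such as Hnrnpa1 and Hnrnpa3, may be counted too low. The lowest value of any member in any mouse was 1.88 CPM, for Hnrnpf, above the 0.243 to 0.514 CPM that 3 counts make of the library totals before TMM scaling.

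**Figure D1:**
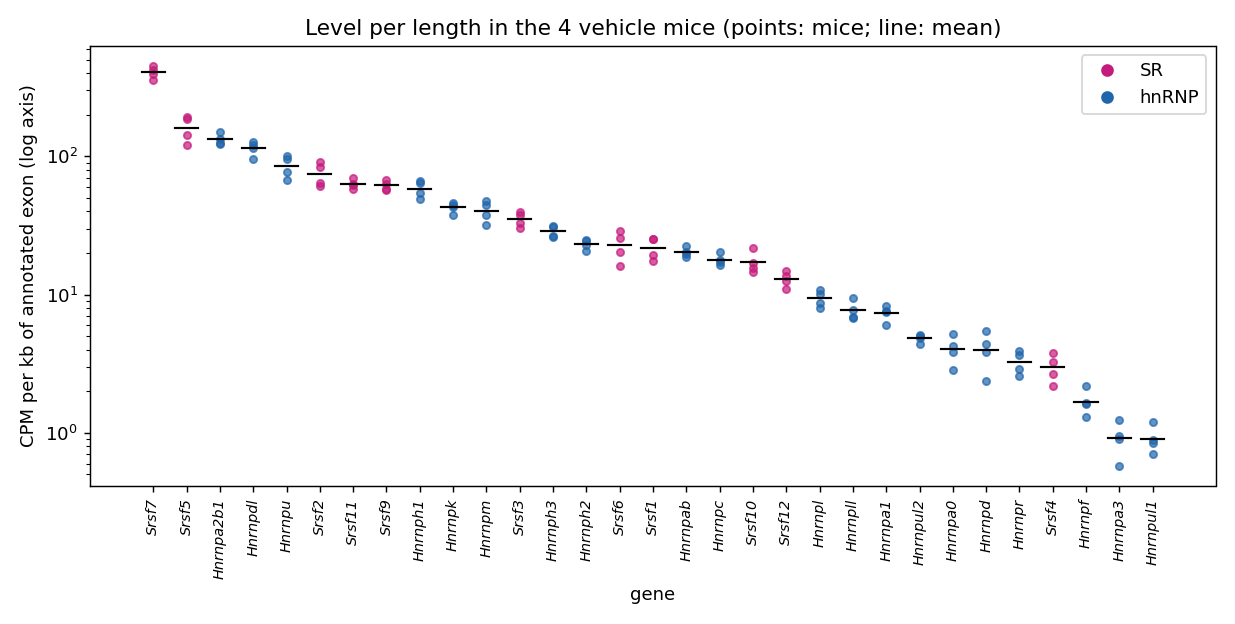
Level of each of the 31 members in the vehicle mice, in CPM per kb of annotated exon on a log axis, with 1 point per mouse and a line at the mean of the 4 mice. SR genes (pink) and hnRNP genes (blue) are interspersed, from Srsf7 at 405 to Hnrnpul1 at 0.909 CPM per kb.

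Several whole-library measures differed between the treatment groups and may touch all results below. Counts per mouse ranged from 9151680 to 11517452 in the vehicle group and from 5834248 to 8090559 in the 24 h and 48 h groups together, which do not overlap vehicle. The 7 days mice had between 6972577 and 12354785. By the measures given with the 7 days results, 7 days mice 1 and 3 lay nearer to vehicle and mice 2 and 4 nearer to the 24 h and 48 h mice. The share of counts on CT010467.1, a copy of 18S ribosomal RNA sequence, lay between 0.00694 and 0.0101% in vehicle mice, between 0.328 and 1.57% in 24 h mice and between 0.523 and 1.66% in 48 h mice. The share on mitochondrial genes was at most 0.0701% in vehicle mice, between 0.0621 and 0.101% in 24 h mice and between 0.108 and 0.268% in 48 h mice. Of the 5 neuronal markers examined, summed levels were 5538 to 5794 CPM in vehicle and 3965 to 6002 CPM at 24 h. The summed levels at 24 h and in vehicle overlapped for astrocyte, oligodendrocyte and microglia markers, which together had no higher call at either time and 1 lower call at 24 h (Mbp). Of 2 markers of oligodendrocyte precursors, Cspg4 was higher at both times (edgeR, adjusted p = 0.0367 and 0.0173), with means of 0.539 CPM in vehicle and 2.17 CPM at 24 h, and Pdgfra passed in neither direction. The summed excitatory markers lay between 439 and 499 CPM in vehicle and between 894 and 2356 CPM at 24 h, where most of the sum was Camk2a, a kinase of excitatory synapses, with means of 180 and 1405 CPM. Tbr1, a cortical excitatory marker, was also higher at both times (edgeR, adjusted p = 0.0347 and 0.025). The summed inhibitory markers overlapped, between 1371 and 2741 CPM in vehicle and between 1706 and 2457 CPM at 24 h, but Gad1 was lower and Slc32a1 higher at both times, and Gad2 was lower at 24 h. Rbfox3, the gene of the sort marker, was higher at both times (edgeR, adjusted p = 0.0103 and 0.00775), and Snap25 was lower (0.0395 and 0.0257). Map2 was higher at 48 h (edgeR, adjusted p = 0.04). The part of these markers in the results was not tested. The endothelial marker Cldn5 was at 0 in all vehicle mice. In bulk nuclei, fewer cells of a type and less RNA per cell cannot be told apart.

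At 24 h and 48 h after DOI, the SR genes that changed were all lower, while changed hnRNP genes went both ways. Srsf5, Srsf7, Srsf3 and Srsf9 were lower at both times, as were Hnrnpab, Hnrnph2 and Hnrnpu. Hnrnpul1, Hnrnpa0 and Hnrnpr were higher at both times, and Hnrnpk was lower at 48 h alone by the threshold. The summed level of the 11 SR genes was 3620 ± 470 CPM in vehicle, 2335 ± 609 at 24 h and 2195 ± 62.4 at 48 h (SD, n = 4). Most of that difference lay in Srsf5 and Srsf7, which together had 2080 ± 280 CPM in vehicle, 789 ± 152 at 24 h and 768 ± 54.4 at 48 h. The other 9 SR genes, among them Srsf3 and Srsf9, which were lower, summed to 1540 ± 192, 1546 ± 481 and 1427 ± 51.5 CPM. The 24 h mean of these 9 includes mouse 1, which had 1014 CPM of Srsf11 where the nearest 24 h mouse had 506. The 20 hnRNP genes summed to 4012 ± 440, 3486 ± 581 and 3439 ± 206 CPM. The 24 h mouse 1, with an SR sum of 3240 CPM, lay within the vehicle range, and the other 7 treated mice at these times lay below it.

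Against vehicle, 10 of 31 members (32.3%) passed at 24 h, 3 higher and 7 lower, by the quasi-likelihood test of edgeR, with p-values adjusted after Benjamini and Hochberg over all 17941 genes and a threshold of 0.05. Of all genes tested, 24.2% passed at 24 h (24% of protein-coding genes), 13.8% higher and 10.4% lower. At 48 h, 11 of 31 (35.5%) passed, 3 higher and 8 lower, against 30.1% of all genes (29.8% of protein-coding genes), 16.8% higher and 13.3% lower. The members' share of calls was thus near that of the other genes. Among the 11 SR genes 4 were lower and 0 higher at each time. The 20 hnRNP genes had 3 higher and 3 lower at 24 h, and 3 higher and 4 lower at 48 h. The 4 treated mice did not overlap the 4 vehicle mice for 13 members at 24 h (35.7% of all genes) and for 14 members at 48 h (38.1% of all genes). The median log2 fold change of the members was -0.15 at 24 h and -0.18 at 48 h, beside -0.08 and -0.11 over tested protein-coding genes and 0.03 and 0.02 over all genes. With library totals in place of trimmed-mean scaling, 4 members were higher and 5 lower at 24 h, and the median of all genes at 24 h moved from 0.03 to 0.14. Under that scaling 23.9% of all genes passed at 24 h, 16.1% higher and 7.82% lower, so the balance of directions moved for all genes too. With the CT010467.1 share as a covariate, described below, 0 members and 0% of all genes passed at either time. With the mitochondrial share as a covariate, 6 members passed at 24 h and 0 at 48 h, beside 12.6 and 0% of all genes. Neither covariate can be told apart from the treatment in these fits.

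**Figure D2:**
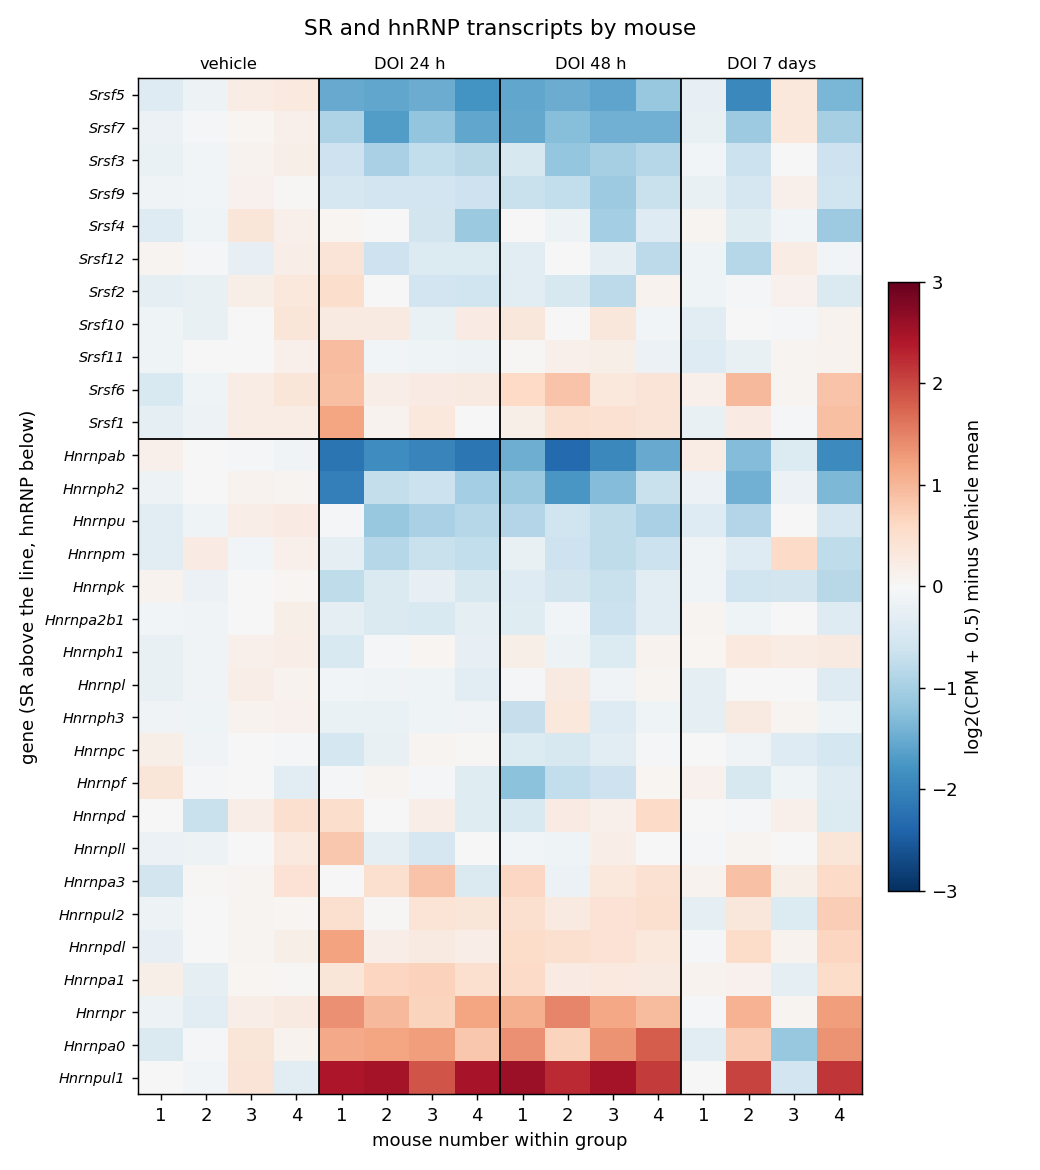
Difference of each member from its vehicle mean, in log2(CPM + 0.5), for the 16 mice in columns (mouse numbers 1 to 4 within each group) and the 31 genes in rows, SR above the line and hnRNP below, ordered by log2 fold change at 24 h. Blue is lower and red higher. Srsf5, Srsf7 and Hnrnpab are blue in all 8 mice at 24 h and 48 h, Hnrnpul1 is red in the same mice, and at 7 days mice 2 and 4 resemble those columns for these genes, while mice 1 and 3 are nearer to vehicle.

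Among the SR genes, Srsf5 (ENSMUSG00000021134, chr12:80945504-80950507, GRCm38, plus strand), an enhancer-binding SR protein, showed the largest fall. Its level in vehicle mice 1 to 4 was 482, 568, 740 and 773 CPM, and at 24 h it was 221, 213, 222 and 180 CPM. At 48 h it was 212, 226, 210 and 285 CPM. All 8 of these treated mice lay below the lowest vehicle mouse. The log2 fold change was -1.62 ± 0.34 (SE) at 24 h and -1.46 ± 0.34 at 48 h (edgeR quasi-likelihood, adjusted p = 0.00418 and 0.00538), and the mean was 3.06-fold lower at 24 h.

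Srsf7 (ENSMUSG00000024097, chr17:80200080-80207307, minus strand), which also links mRNA to the export receptor NXF1, had 1264, 1396, 1498 and 1599 CPM in the vehicle mice. It had 755, 452, 629 and 483 CPM at 24 h and 498, 591, 525 and 527 CPM at 48 h. The groups did not overlap, and the 48 h mice were within 100 CPM of each other. Its mean was 2.48-fold lower at 24 h and 2.69-fold lower at 48 h, with log2 fold changes of -1.31 ± 0.26 and -1.43 ± 0.26 (edgeR, adjusted p = 0.00348 and 0.00194).

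Srsf3 (ENSMUSG00000071172, chr17:29032628-29043373, plus strand), the smallest SR protein and another export adaptor, had 240, 261, 297 and 313 CPM in vehicle mice. The values were 178, 140, 165 and 154 CPM at 24 h and 198, 123, 139 and 153 CPM at 48 h. Again no treated mouse at these times reached the vehicle range. The log2 fold change was -0.80 ± 0.19 at 24 h and -0.86 ± 0.19 at 48 h (edgeR, adjusted p = 0.00756 and 0.0045). Srsf9, the remaining lower SR gene, had 94.8, 95.9, 112 and 105 CPM in vehicle, 71.9, 67.7, 68.1 and 66.3 CPM at 24 h and 63.7, 60.3, 47.6 and 64.2 CPM at 48 h. The 3 groups of Srsf9 did not overlap each other, with 48 h the lowest. In the direct test of 48 h against 24 h, Srsf9 did not pass (edgeR). Its log2 fold change was -0.57 ± 0.17 at 24 h and -0.79 ± 0.18 at 48 h (edgeR, adjusted p = 0.0252 and 0.00461). The 24 h call was lost in 9 of the 23 alternative analyses.

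The other 7 SR genes passed at neither time. Their log2 fold changes at 24 h lay between -0.38 for Srsf4 and 0.47 for Srsf1, so 4 of the 11 SR genes had positive values and 7 negative. Srsf2, among the most abundant, had 181, 189, 247 and 271 CPM in vehicle, 314, 217, 147 and 145 CPM at 24 h and 175, 156, 127 and 234 CPM at 48 h. Its groups overlapped, with the 24 h mice on both sides of the vehicle range, and its log2 fold change was -0.11 ± 0.25 at 24 h and -0.36 ± 0.25 at 48 h. Srsf6 had the largest value in the SR family at 48 h without a call, 0.52 ± 0.24 (edgeR, adjusted p = 0.107).

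**Figure D3:**
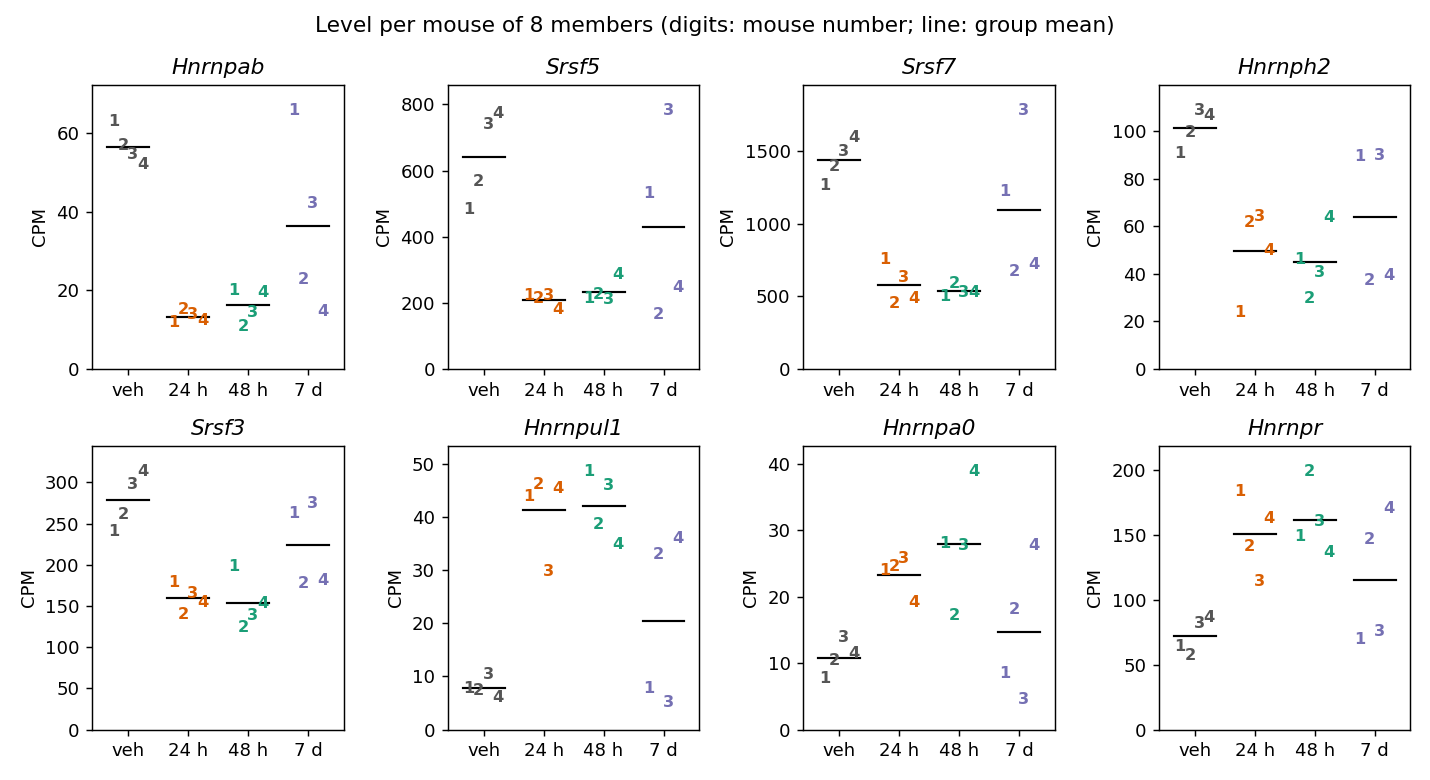
CPM per mouse of 8 members on linear axes that start at 0, with each mouse drawn as its number within its group and a line at the group mean. For the 5 lower genes (Hnrnpab, Srsf5, Srsf7, Hnrnph2, Srsf3) and the 3 higher genes (Hnrnpul1, Hnrnpa0, Hnrnpr), the 24 h and 48 h mice do not overlap vehicle. At 7 days mice 1 and 3 lie apart from mice 2 and 4 in every panel.

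The largest fall among all members was that of Hnrnpab (ENSMUSG00000020358, chr11:51600100-51606847, minus strand), an hnRNP of the A/B type that binds mRNAs moved into dendrites. Vehicle mice had 62.9, 56.7, 54.4 and 52.1 CPM, the 24 h mice 11.9, 15.2, 13.9 and 12.2 CPM and the 48 h mice 20.0, 10.7, 14.4 and 19.4 CPM. Every treated mouse at these times had less than the lowest vehicle mouse, and the mean was 4.25-fold lower at 24 h and 3.51-fold lower at 48 h. The log2 fold changes were -2.09 ± 0.34 and -1.81 ± 0.34 (edgeR, adjusted p = 0.00181 and 0.00215). Hnrnpab also had the smallest p of all members in the test of any difference among the 4 groups (adjusted p = 0.00306 by edgeR), in which 8 of 31 members (25.8%) passed against 18.8% of all genes. Of its exonic bases 29.1% are shared with Phykpl on the other strand. The counts are not stranded and reads on shared bases are left out by default, so the value comes from the other bases and is uncertain to that extent.

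Hnrnph2 (ENSMUSG00000045427, chrX:134601179-134607060, plus strand), which binds runs of G, had 90.5, 99.5, 109 and 107 CPM in vehicle mice. It had 23.9, 61.5, 64.2 and 49.7 CPM at 24 h, and 46.2, 29.6, 40.6 and 63.7 CPM at 48 h. The treated mice differed among themselves by more than the vehicle mice did, yet none reached the vehicle range. The log2 fold change was -1.02 ± 0.32 at 24 h and -1.17 ± 0.32 at 48 h (edgeR, adjusted p = 0.0291 and 0.0134). The 24 h call was lost in 8 of the 23 alternative analyses. Its relatives Hnrnpf, Hnrnph1 and Hnrnph3 passed at neither time.

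Hnrnpu, the scaffold attachment factor that binds both RNA and chromatin, had 782, 894, 1117 and 1160 CPM in vehicle, 948, 447, 495 and 542 CPM at 24 h and 532, 641, 572 and 499 CPM at 48 h. At 24 h mouse 1 lay inside the vehicle range and the other 3 mice below it, and at 48 h all 4 were below. The log2 fold change was -0.70 ± 0.24 at 24 h and -0.82 ± 0.24 at 48 h (edgeR, adjusted p = 0.0378 and 0.0161). The 24 h call was lost in 11 of the 23 alternative analyses. Hnrnpk, a binder of C-rich RNA, had 295, 245, 277 and 289 CPM in vehicle, 162, 204, 234 and 197 CPM at 24 h and 212, 187, 174 and 222 CPM at 48 h, with no overlap at either time. Its log2 fold change was -0.47 ± 0.17 at 24 h and -0.48 ± 0.17 at 48 h, on the 2 sides of the threshold (edgeR, adjusted p = 0.0552 and 0.0463). The 48 h call was lost in 15 of the 23 alternative analyses. The direct test of 48 h against 24 h gave a log2 difference of -0.00 with an adjusted p of 1 (edgeR) for Hnrnpk, so a difference between the times is not shown.

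Hnrnpul1 (ENSMUSG00000040725, chr7:25721165-25754757, minus strand), an hnRNP U relative known for a role in repair of DNA ends, showed the largest rise of all members. Vehicle mice had 7.74, 7.28, 10.3 and 6.13 CPM, the 24 h mice 43.9, 46.1, 29.8 and 45.3 CPM and the 48 h mice 48.5, 38.5, 46.0 and 34.8 CPM. The lowest treated mouse at these times had more than the highest vehicle mouse. The mean was 5.25-fold higher at 24 h and 5.33-fold higher at 48 h, with log2 fold changes of 2.39 ± 0.45 and 2.41 ± 0.45 (edgeR, adjusted p = 0.00309 and 0.00216). Of the 3 hnRNP U genes, Hnrnpul1 rose, Hnrnpu fell and Hnrnpul2 did not pass, with log2 fold changes of 0.34 ± 0.22 at 24 h and 0.42 ± 0.22 at 48 h.

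Hnrnpr (ENSMUSG00000066037, chr4:136310942-136359447, plus strand), which takes part in axonal mRNA transport in motor neurons, had 64.2, 57.1, 81.6 and 86.3 CPM in vehicle mice. Its level was 184, 141, 114 and 163 CPM at 24 h and 149, 199, 161 and 137 CPM at 48 h. Every treated mouse at these times was above the vehicle range. The mean was 2.08-fold higher at 24 h and 2.23-fold higher at 48 h, with log2 fold changes of 1.06 ± 0.26 and 1.16 ± 0.26 (edgeR, adjusted p = 0.00938 and 0.00488).

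Hnrnpa0 (ENSMUSG00000007836, chr13:58125879-58128556, minus strand), a gene of 1 exon whose protein binds AU-rich elements, had 7.65, 10.3, 13.9 and 11.4 CPM in vehicle mice. At 24 h the values were 23.9, 24.6, 25.7 and 19.1 CPM and at 48 h 28.0, 17.2, 27.7 and 38.8 CPM, again with no overlap. The log2 fold change was 1.11 ± 0.40 at 24 h and 1.37 ± 0.40 at 48 h (edgeR, adjusted p = 0.0492 and 0.0168). The 24 h call sat at the threshold and was lost in 14 of the 23 alternative analyses, among them those without any 1 of the 4 vehicle or the 4 treated mice.

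The other members of the A/B/D type moved less. Hnrnpa2b1 had 823, 804, 881 and 989 CPM in vehicle, 711, 642, 637 and 716 CPM at 24 h and 680, 828, 560 and 683 CPM at 48 h. Its 24 h mice were all below vehicle, but the log2 fold change of -0.37 ± 0.16 did not pass (edgeR, adjusted p = 0.0991). Hnrnpdl had 460, 552, 582 and 616 CPM in vehicle, 1264, 632, 663 and 632 CPM at 24 h and 809, 764, 740 and 686 CPM at 48 h. Both treated groups lay wholly above vehicle, and the log2 fold change was 0.53 ± 0.22 at 24 h and 0.44 ± 0.22 at 48 h (edgeR, adjusted p = 0.0888 and 0.139). Hnrnpa1, with log2 fold changes of 0.55 ± 0.20 and 0.35 ± 0.20 and no overlap with vehicle at either time, did not pass (edgeR, adjusted p = 0.0514 and 0.184). In all, 20 members passed at neither time, with log2 fold changes from -0.63 to 0.55 over both.

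**Figure D4:**
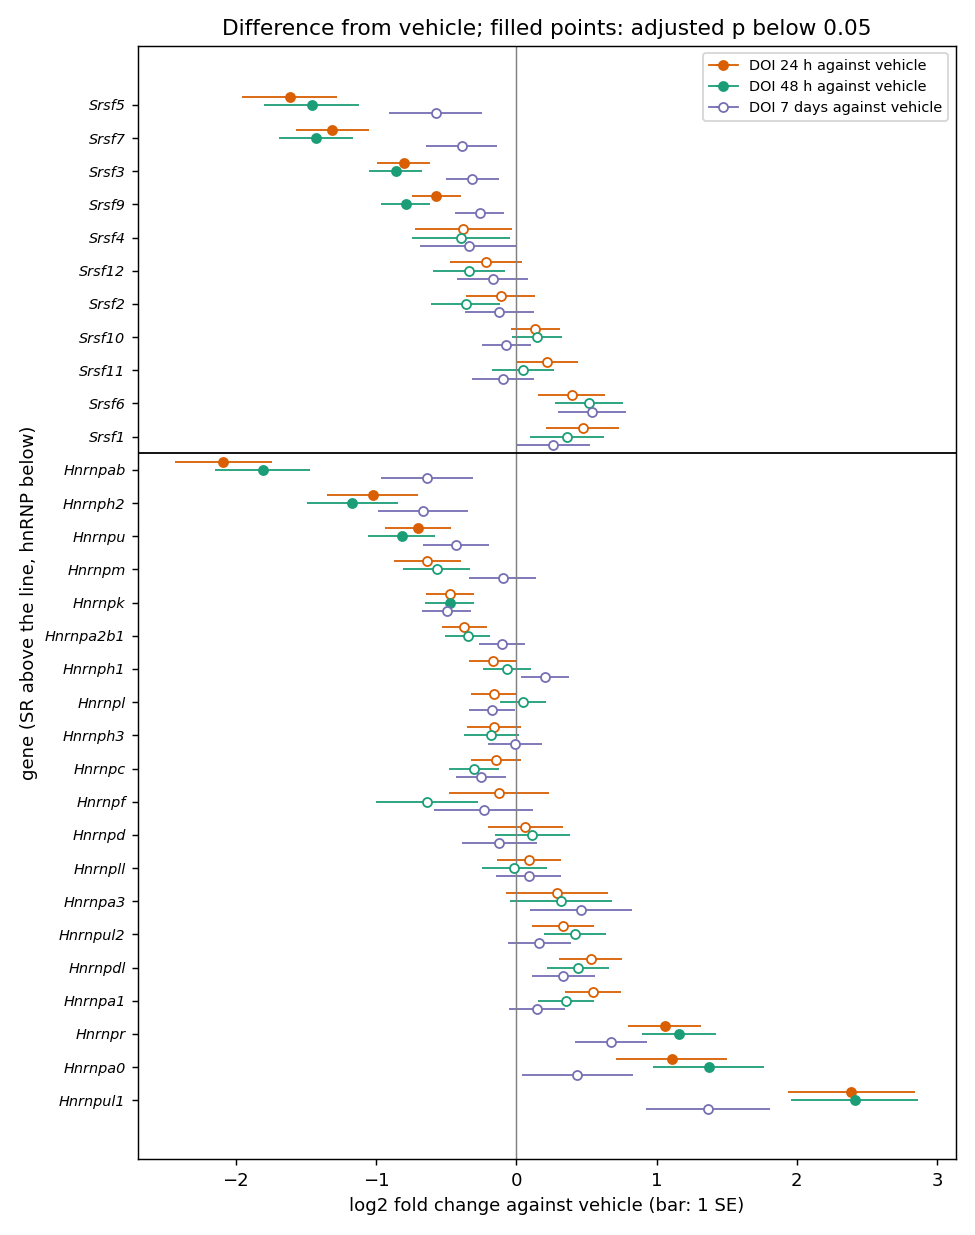
Log2 fold change against vehicle of the 31 members at 24 h (orange), 48 h (green) and 7 days (purple), with bars of 1 SE from edgeR and filled points where the adjusted p was below 0.05. The filled points are the 10 calls at 24 h and 11 at 48 h. No 7 days point is filled.

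The 24 h and 48 h comparisons use the same vehicle mice, so their lists of calls are not independent of each other. The direct comparison of 48 h with 24 h, in which the vehicle mice enter the filter and the estimate of spread but not the fold change, called 0 members and 0% of all genes (edgeR, and 0 members by DESeq2 and by voom). An unadjusted p below 0.05 (edgeR) was found for 0 members and for 1.88% of all genes. Member log2 differences between these times ran from -0.51 to 0.28.

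At 7 days after DOI, no member passed against vehicle by edgeR, and 0% of all genes did. Unadjusted p-values were below 0.05 for 4 members (12.9%) and for 16.8% of all genes. DESeq2 called 1 member (Hnrnpul1) and 4.44% of all genes, and voom with quality weights called 0 members and 0% of all genes. The groups failed to overlap for 1 member, Hnrnph2, where 5.85% of all genes did so. Hnrnpul1 had the smallest p. Its 7 days mice 1 to 4 had 7.79, 32.9, 5.02 and 36.0 CPM, so mouse 1 lay within the vehicle range, mouse 3 below it and mice 2 and 4 within that of the earlier times. The log2 fold change was 1.37 ± 0.44 (edgeR, adjusted p = 0.142).

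The same 7 days mice stood apart from each other for most members. In 25 of 31 (80.6%), and in 65.1% of all genes tested, mice 2 and 4 lay both above or both below mice 1 and 3, a count made after this pattern was seen. Srsf7 had 1227, 669, 1781 and 718 CPM, Srsf5 had 532, 164, 781 and 245 CPM, and Hnrnpab had 65.6, 22.7, 42.1 and 14.7 CPM. Srsf3 had 262, 178, 275 and 181 CPM, Hnrnph2 89.5, 37.1, 89.9 and 39.3 CPM, Hnrnpr 69.4, 146, 76.0 and 171 CPM, and Hnrnpa0 8.47, 18.04, 4.55 and 27.7 CPM. For each of these genes, mice 2 and 4 lay on the side of the 24 h and 48 h groups and mice 1 and 3 on the side of vehicle. The 6 members without that order were Hnrnpc, Hnrnph3, Hnrnpl, Srsf11, Srsf12 and Srsf2, which had 200, 215, 239 and 162 CPM. Hnrnpk had 257, 182, 189 and 155 CPM, of which mice 2, 3 and 4 lay below every vehicle mouse. Of the 10 members called at both times, 8 in mouse 2 and 10 in mouse 4 lay within the range of the 24 h and 48 h mice, against 1 in mouse 1 and 0 in mouse 3. Within the vehicle range lay 5 of the 10 in mouse 1 and 3 in mouse 3, and none in mice 2 and 4. In the file header, 7 days mouse 2 carries mouse number 6 in place of the number of its label, while the group is that of the label. Whether the treatment labels of the 7 days mice hold was not tested, and the group's values and its lack of calls are those of the mice so labelled. The median log2 difference from the vehicle mean over the 7 lower genes was -0.21, -1.10, -0.00 and -0.999 in mice 1 to 4, and over the 3 higher genes -0.04, 1.04, -0.60 and 1.37.

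The share of counts on CT010467.1 in the 7 days mice 1 to 4 was 0.00834, 0.633, 0.00607 and 0.474%, so mice 2 and 4 also stood apart there. The share on mitochondrial genes split the same way, with 0.0413, 0.130, 0.0210 and 0.114%. The part of either share in the result was not tested within this group. Without mouse 1 the test at 7 days called 4 members (Hnrnpul1, Hnrnpr, Hnrnpab and Hnrnpk) and 7.26% of all genes, and without mouse 3 it called 2 (Hnrnpul1 and Srsf5) and 6.28% of all genes. Against 48 h, the 7 days group had 0 calls by edgeR (0% of all genes), with 7 members (22.6%) and 16.5% of all genes at an unadjusted p below 0.05. DESeq2 called 2 members (Hnrnpab and Srsf7) and 2.41% of all genes, and voom 0 members. Without mouse 2 there were 3 calls (Hnrnpab, Srsf5 and Srsf7) and without mouse 4 there were 2 (Hnrnpab and Srsf7), beside 2.14 and 2.37% of all genes. The median coefficient of variation of the members was 24.9% at 7 days, 13.8% in vehicle, 18.7% at 24 h and 15.96% at 48 h. Over all genes with a mean of at least 3 CPM it was 31.0, 16.1, 24.0 and 23.5%.

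The 24 h and 48 h calls depended on whether library measures that move with treatment entered the fit. With the CT010467.1 share of each mouse as a covariate, 0 members passed at 24 h and 0 at 48 h, and the same fit called 0% of all genes at either time. An unadjusted p below 0.05 was found for 9 and 6 members (29.0 and 19.4%) and for 18.9 and 15.7% of all genes. All members called without the covariate kept their direction. Hnrnpab had a log2 fold change of -1.94 at 24 h in that fit (edgeR, adjusted p = 0.116), Hnrnpul1 1.71 (0.129), Hnrnpr 1.00 (0.158) and Hnrnph2 -1.22 (0.237). Values nearer 0 were found for Srsf5 at -0.98, Srsf7 at -0.66, Hnrnpa0 at 0.53 and Hnrnpu at -0.16. Between-group differences made up 67.9% of the variance of this share over the 16 mice, so the covariate and the treatment cannot be told apart by this fit. With the mitochondrial share as covariate, 6 members passed at 24 h (Hnrnpul1, Hnrnpr, Hnrnpab, Srsf5, Srsf7 and Srsf3), beside 12.6% of all genes. Of the 4 calls lost at 24 h, Hnrnpu had a log2 fold change of -0.65 in that fit (-0.70 without the covariate), Hnrnph2 -0.94 (-1.02), Srsf9 -0.47 (-0.57) and Hnrnpa0 0.73 (1.11). At 48 h that fit called 0 members and 0% of all genes, with 5 members (16.1%) and 15.2% of all genes at an unadjusted p below 0.05. Differences between groups made up 56.9% of the variance of the mitochondrial share, so this covariate and the treatment cannot be told apart either. The log2 fold changes at 48 h were nearer 0 for all 11 members called without the covariate, such as 0.23 for Hnrnpa0 (1.37 without it) and 1.61 for Hnrnpul1 (2.41).

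The genes that act with the SR and hnRNP proteins also moved in both directions. The counts below stand beside 24.2% of all genes called at 24 h (13.8% higher, 10.4% lower) and 30.1% at 48 h (16.8% higher, 13.3% lower). Among 11 kinases and import receptors of SR proteins, 3 were higher and 3 lower at 24 h, and 4 and 3 at 48 h (54.5 and 63.6% called). The SR protein kinase Srpk3 had 116 ± 22.7 CPM in vehicle and 41.8 ± 11.2 CPM at 24 h (SD, n = 4), and the import receptor Tnpo3 had 149 ± 16.3 and 84.7 ± 17.0 CPM. Their log2 fold changes were -1.48 and -0.82 (edgeR, adjusted p = 0.00715 and 0.00962). The kinase Clk2 and the import receptor Tnpo1 were higher at 24 h, by 0.92 and 0.84 on the log2 scale (edgeR, adjusted p = 0.0217 and 0.0237).

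Of 27 SR-related and nuclear speckle genes, 6 were higher and 6 lower at 24 h, and 6 and 4 at 48 h (44.4 and 37.0%, beside 24.2 and 30.1% of all genes). Srrm2, a core protein of speckles, fell from 952 ± 99.7 to 232 ± 67.0 CPM at 24 h (log2 fold change -2.04, edgeR adjusted p = 0.00477), and Rnps1, of the exon junction complex, by 0.80. Scaf1, an SR-related protein that binds the tail of RNA polymerase II, rose from 6.42 ± 0.842 to 96.0 ± 28.7 CPM (3.90, edgeR adjusted p = 0.00219), and Tra2b, an SR-like activator of exons, from 35.4 ± 4.76 to 135 ± 41.6 CPM (1.93, edgeR adjusted p = 0.00329). Among 32 tested neuronal and tissue-specific splicing regulators, 6 were higher and 3 lower at 24 h, and 7 and 4 at 48 h (28.1 and 34.4%, near the share of all genes). Celf5 and Tial1, which bind GU-rich and U-rich RNA, rose, with log2 fold changes of 2.62 and 1.71, and Celf3 and Khdrbs3, a regulator of neurexin splicing, fell, with -1.77 and -0.71. Of that list Mbnl3 had too few counts to be tested.

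Among 26 hnRNP-like and paraspeckle RNA-binding genes, 4 were higher and 4 lower at 24 h, and 5 and 5 at 48 h (30.8 and 38.5%, beside 24.2 and 30.1% of all genes). Dazap1, an hnRNP-like protein, rose from 2.91 ± 0.400 to 24.7 ± 7.53 CPM at 24 h (3.09, edgeR adjusted p = 0.00153) and Taf15 rose by 1.61 on the log2 scale. Rbmx, also known as hnRNP G, and Safb, a scaffold factor, fell at 24 h, with log2 fold changes of -1.05 and -1.10. Of 60 core spliceosome genes, 6 were higher and 14 lower at 24 h, and 7 and 15 at 48 h (33.3 and 36.7%, beside 24.2 and 30.1% of all genes). Sf3b1, a binder of the branch point region, fell from 2231 ± 165 to 743 ± 21.3 CPM at 24 h (-1.59, edgeR adjusted p = 0.00178), and Snrpn, the imprinted neuronal Sm protein, by 1.90 on the log2 scale. Sf1, the branch point binding protein, and Prpf19, which helps to activate the spliceosome, rose, with log2 fold changes of 1.56 and 1.67. No gene of the 5 lists passed at 7 days by edgeR. The lists were drawn up with earlier results of these data known, so their counts describe the genes and do not test the lists.

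**Figure D5:**
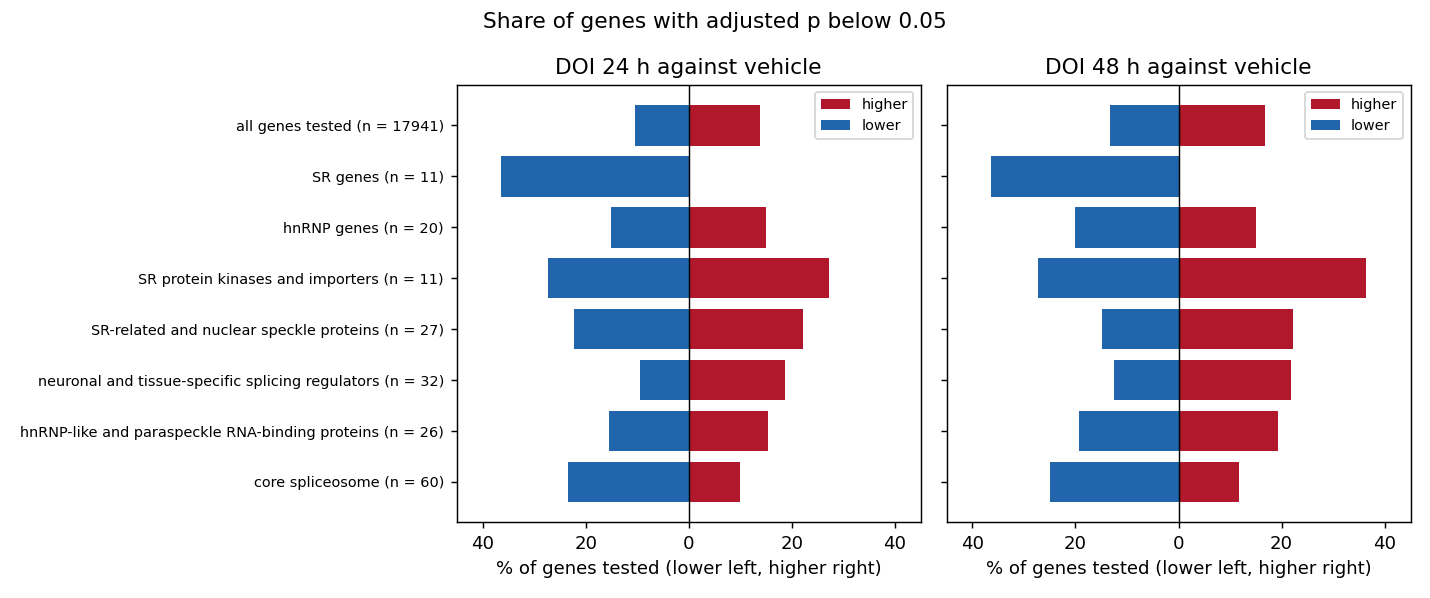
Percentage of tested genes with an adjusted p below 0.05 (edgeR) that were lower (blue, to the left) or higher (red, to the right) than vehicle at 24 h and 48 h, for all genes tested, the SR and hnRNP genes and the 5 lists of splicing-related genes. SR genes show lower calls only, 4 of 11 at each time, where all genes show 10.4% lower and 13.8% higher at 24 h.

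Gene structure, which the naming rule did not use, was more compact in the median member than in the median protein-coding gene. Annotated exons made up a median of 49.4% of the gene span, against 17.8% for the 13223 tested protein-coding genes, and the median span was 10746 bp against 26750 bp. Not every member was compact: 4 (Hnrnpc, Hnrnpf, Srsf12 and Srsf4) had an exonic share below the protein-coding median, and 6 had a longer span than the median. Within the families, the exonic share ran from 12.0% for Hnrnpf to 100% for Hnrnpa0. Its median was 69.5% for the 7 members lower at 24 h, 45.8% for the 3 higher and 49.4% for the 21 uncalled. The rank correlation of the exonic share with the 24 h log2 fold change was 0.11 across the 31 genes. Across tested protein-coding genes it was -0.08 (Spearman, across genes that share the same libraries). The vehicle level per gene had a rank correlation of -0.44 with that fold change across members and -0.33 across protein-coding genes. More abundant members thus tended to have lower fold changes, as did protein-coding genes, and the vehicle mice enter both quantities. Whether the correlations of members and protein-coding genes differ was not tested. Exonic bases overlapping other genes were found in 14 members and exceeded 20% in 4: Srsf4 (43.0%), Hnrnpab (29.1%), Hnrnpf (26.5%) and Srsf2 (25.3%). Their values rest on the remaining exonic bases.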

How the data were processed

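Per the file headers, the authors counted reads per Ensembl gene over exons of a GRCm38 annotation with featureCounts v2.0.0, with no option set for strand, read pairs, multi-mapping or overlapping reads; the deposited values are raw counts. The submitters' processing notes name Trim Galore 0.6.5, without a role; the RNA aligner is not given in the sources used here. Per the labels, cDNA was made from sorted nuclei by SMART-seq2 with Nextera XT libraries, and this chemistry does not mark strand.

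The 2 libraries per mouse were added up, giving 16 mice in 4 groups with 5834248 to 12354785 counts each. Genes were filtered with filterByExpr, scaled by TMM and fitted once over all groups with edgeR 4.0.16 (glmQLFit, glmQLFTest) in R 4.3.3; p-values were adjusted over 17941 genes with the Benjamini-Hochberg method and called at 0.05. CPM values use the TMM-scaled totals. The fitting code was run on simulated counts with a known set of changed genes, which checks the code and not the calls in these data. Labels give mice within a group as separate animals. The headers of 24 h mouse 1, 48 h mouse 2 and 7 days mouse 2 carry mouse number 6 with the group of the label, and the label numbers were used.

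Members and gene lists were chosen with earlier results of these data known. Named with a value in every mouse are: up to 5 called, non-overlapping members with the largest fold change in each direction at 24 h or 48 h; the 7 days member with the smallest p; the 3 SR and 3 hnRNP genes of highest vehicle level per length; and the member with the smallest p over the 4 groups. Srsf9, Hnrnpu and Hnrnpk complete the calls. From each list up to 2 called genes per direction were named. Alternatives were RLE scaling, library totals, filters, DESeq2 1.42.0, voom with quality weights (limma 3.58.1), single libraries, fewer groups, covariates, a replicate block, other thresholds and leaving out each mouse. Cell type markers were lists of 2 to 6 genes for neurons, their excitatory and inhibitory types, glia and endothelial cells.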

Additional observations from a re-analysis of the deposited data

Results flagged for a closer look

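In 7 of 124 sets of 4 mice (31 members in 4 groups), 1 mouse lay far from the other 3, by Dixon's criterion on the gap to the nearest mouse; chance alone gives about 1 in 20 such sets, or 6.2 of 124. At 24 h, mouse 1 was the high mouse in 4 of them: 198 CPM for Srsf6 (nearest mouse 128), 1014 CPM for Srsf11 (506), 53.5 CPM for Srsf12 (30.5) and 1264 CPM for Hnrnpdl (663). Mouse 3 at 24 h was low for Srsf10 at 104 CPM (nearest 140) and for Hnrnpul1 at 29.8 CPM (nearest 43.9), which was still above every vehicle mouse. Mouse 1 at 48 h was high for Hnrnpa1 at 34.8 CPM (nearest 28.2). With mouse 1 of both times left out together, an analysis chosen after seeing the data, 10 members were called at 24 h and 11 at 48 h, beside 18.3 and 27.5% of all genes, but not all the same members: at 24 h Hnrnpa0 and Hnrnph2 were lost and Hnrnpa1 and Hnrnpm gained, and at 48 h Hnrnpk was lost and Hnrnpm gained. The file header of 24 h mouse 1 carries mouse number 6. Of the 7 genes with a mouse far from the others, Hnrnpul1 is the 1 that passed the test against vehicle.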

How the results depend on the processing

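Over all 31 members, no called fold change against vehicle changed sign in any alternative run; an uncalled one did in at least 1 alternative for 11 members at 24 h, 12 at 48 h and 13 at 7 days, all with log2 fold changes between -0.39 and 0.44. Single values were listed for 14 members, of which 2 did so. Srsf2 was 0.23 at 24 h and 0.10 at 48 h with the CT010467.1 share as covariate, and with a mouse left out it ran from -0.39 to 0.0155 at 24 h, above 0 without 24 h mouse 3 (0.0155) or mouse 4 (0.01475). Hnrnpa0 at 7 days was -0.06205 by voom and -0.00902 with the mitochondrial share, and with a mouse left out ran from -0.0554 without 7 days mouse 4 to 0.74. Members called at 24 h, 48 h and over the 4 groups (10, 11 and 8) became 6, 0 and 0 with the mitochondrial share as covariate (12.6, 0 and 0.730% of all genes), 0, 0 and 0 with the CT010467.1 share (0% of all genes), and 6, 7 and 4 at a threshold of 0.01 (7.83, 11.6 and 4.67%); voom with quality weights called 14 over the 4 groups (39.7%). At 7 days against vehicle, 1 member passed with no filter (2.62%) and 1 by DESeq2 (4.44%), Hnrnpul1 in both; against 48 h, 3 passed with no filter (1.82%) and 2 by DESeq2 (2.41%). Leaving out each of the mice of the groups compared gave 6 to 9 members at 24 h (13.9 to 21.2% of all genes; 6 without vehicle mouse 3, vehicle mouse 4 or 24 h mouse 4), between 9 and 10 at 48 h (19.0 to 26.4%), and between 0 and 4 at 7 days (0 to 7.26%). For 7 days against 48 h it gave 0 to 3 (0 to 2.37%), for 48 h against 24 h 0 throughout, and over the 4 groups 6 to 11 (7.998 to 24.3%). With each of all 16 mice left out, also those that enter a comparison through the shared spread alone, the ranges were 6 to 13 at 24 h (13.9 to 26.8%) and 9 to 12 at 48 h (19.0 to 32.1%), both highest counts being without a 7 days mouse. Called without any 1 of the 8 mice compared were 6 members at 24 h (Hnrnpab, Hnrnpr, Hnrnpul1, Srsf3, Srsf5, Srsf7) and 9 at 48 h, which adds Hnrnph2, Hnrnpu and Srsf9. The cause of these changes was not tested. With the mouse number as a replicate block, 8 members passed at 24 h, 10 at 48 h, 0 at 7 days and 7 over the 4 groups (20.4, 26.0, 0 and 13.4% of all genes); same-numbered mice are different animals, and their deviations had a mean correlation of -0.04 over 24 pairs. For the 14 members, 548 of the fits with another setting kept their side of the threshold and their sign, 53 lost a call, 11 gained one and 4 changed sign; with a mouse left out these were 294, 32, 7 and 3. Thinning all mice to the smallest total, chosen after seeing the data, left 10 calls at 24 h and 10 at 48 h (23.7 and 29.6% of all genes), and leaving out the 7 days group, also chosen then, gave 13 and 13 (34.3 and 39.1%).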
